A study of Triticum aestivum with 48 samples.

Results

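Roots of the wheat varieties HD2967 and K307 were compared at low nitrogen supply. The comparison takes 3 HD2967 and 3 K307 root arrays, 6 of the 48 arrays of the series, chosen by their labelled genotype, tissue and supply. Both groups were 15 day old seedlings raised in pots of vermiculite and perlite on modified MS medium, in which 0.08 mM calcium nitrate was the nitrogen source. The matching control groups of each genotype received 8 mM, and one more variety, K9107, was grown in the same 2 ways. Each group held 3 arrays, and the series description gives 3 sets of pots per genotype. The labels tie no array to a set of pots, so p-values measure only the spread between these arrays. Arrays are called here by genotype and replicate number.

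Roots take up nitrate through transporters of the plasma membrane, which are powered by a proton gradient, and reduce and assimilate it there or in the shoot. Bread wheat is hexaploid and carries near-identical copies of most genes on its A, B and D genomes, so a probe set can sense several copies. Varieties differ both in transcript level and in sequence under the probes, and on this kind of array these 2 sources of a difference cannot be told apart. In whole roots, fewer cells of a type and less RNA per cell cannot be told apart either. No detection call was used, so a low level is a low signal and was not judged against background.

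The deposited values are log2 intensities. The medians of the 48 arrays fell into 4 ranges parted by gaps of over 0.1, called normalization sets here, with 12 arrays in each. The low nitrogen HD2967 arrays 1, 2 and 3 lay in sets 4, 2 and 3, and the K307 arrays in sets 2, 3 and 2. HD2967 array 1 therefore shared no set with a low nitrogen K307 array and was tied to them through the other root arrays of the fit. The set was a term of the fit over 18 root arrays of HD2967, K9107 and K307, and levels below are set-adjusted log2 intensities on the scale of set 2. The term brought the median posterior SD per probe set from 0.454 to 0.19. Over all probe sets the difference had a median of -0.03 with it and 0.27 without it. Set-adjusted arrays correlated at 0.991 to 0.994 within HD2967, at 0.977 to 0.993 within K307 and at 0.956 to 0.979 between the genotypes. The set offsets were fitted partly on these same arrays, with each HD2967 array in a different set, which draws set-adjusted arrays of a group together. In deposited values the correlations were 0.98 to 0.981 within HD2967 and 0.971 to 0.986 within K307. The leaf chloroplast markers PsbO, PsbP, petC, PRK and FBP were all lower on the 6 root arrays than on the 6 low nitrogen shoot arrays of the pair. The gene rbcl, also planned as a marker, was not part of this check. In deposited values, not adjusted for the set, PsbP was at 5.45 to 6.88 in these roots and 11.47 to 12.57 in these shoots. This is the pattern of the labelled tissue.

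Many probe sets differed between the genotypes at low nitrogen, in nearly balanced numbers each way. Of 61179 probe sets tested, 5654 passed (9.24%), with 2634 higher in HD2967 (4.31%) and 3020 higher in K307 (4.94%), by limma with Benjamini-Hochberg adjustment at 0.05. The called differences ran from 0.32 to 9.94 on the log2 scale in size, with a median of 0.80. Without the set term 872 passed, of which 631 were higher in HD2967, so the split moved from 46.6% to 72.4% higher in HD2967. Set-adjusted values of the 2 groups did not overlap for 17977 probe sets (29.4%), and 5637 of these had passed. Nearly all of the 5654 called probe sets were thus without overlap, so a lack of overlap adds little to a call. Within set 2, where 1 HD2967 array met 2 K307 arrays, 85.3% of all probe sets had the sign of the fit, and within set 3, with 1 array of each, 71.7% had it. Of the called probe sets 5654 and 5648 had it, which the call on these same arrays nearly fixes. The shares over all probe sets are partly built in too, since these arrays are part of the fit. Differences within set 2 and within set 3, which share no array, correlated at 0.604 over all probe sets. Without HD2967 array 2 the count of called probe sets was 2529, and without HD2967 array 1 it was 3391.

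**Figure D1:**
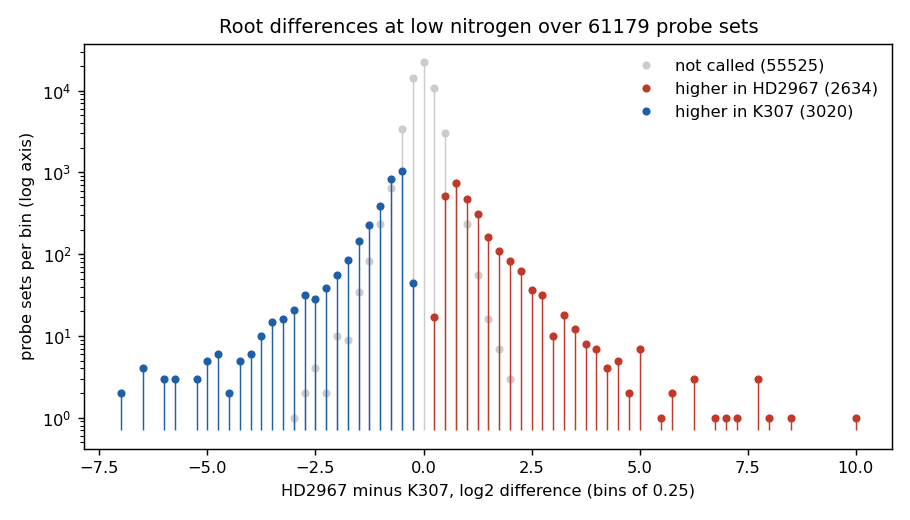
Number of probe sets (log axis) by HD2967 minus K307 difference in low nitrogen roots, in bins of 0.25 on the log2 scale, for probe sets not called (grey), called higher in HD2967 (red) and called higher in K307 (blue). The 2634 red and 3020 blue probe sets reach differences of 9.94 and -7.05.

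Calls were more frequent among bright probe sets. Split by mean level into 4 bins of like size, 1.38% were called in the dimmest bin, and 5.17%, 12.1% and 18.3% in the next ones. Probe sets of the class that the manufacturer marks as unique, with the plain suffix, were called in 8.26% of cases, and those of the other suffix classes in 12.2% to 14.8%.

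Large differences were mostly present at both supplies. Of 480 called probe sets that differed by at least 2 on the log2 scale, 81.5% were called in the same direction in control nitrogen roots and 58.3% in low nitrogen shoots. At a difference of at least 4 there were 73 probe sets, 38 higher in HD2967 and 35 higher in K307, and 97.3% of them had the same call at control nitrogen. In 67 of the 73 the lower genotype lay below the median of set 2 (4.40). The median level was 3.13 in the lower genotype and 8.53 in the higher one. All 73 kept their call and direction without the set term, in the 6 arrays alone, in the 9 low nitrogen arrays alone and with any 1 of the 6 arrays left out. Their choice by size on these same arrays nearly fixes this. K9107 was nearer to K307 for 49 of the 73 and nearer to HD2967 for 24.

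The probe sets furthest apart are paired with no gene in the annotation, and the 2 outermost on each side are described by their rank. The one highest in K307 was at 2.85, 3.06 and 2.86 in HD2967 and at 9.93, 10.11 and 9.87 in K307. Its difference was -7.05 ± 0.12 (SE, adjusted p = 6.61e-14), against -6.95 at control nitrogen and -7.01 in low nitrogen shoots. It was thus near one level in every K307 group and near another in every HD2967 group, and K9107 roots averaged 9.53. The next was at 1.84, 1.88 and 1.83 in HD2967 and at 8.59, 8.94 and 8.88 in K307, a difference of -6.95 ± 0.13 (SE, adjusted p = 1.49e-13).

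The unpaired probe set highest in HD2967 was at 12.44, 12.96 and 12.17 in HD2967 and at 2.84, 2.40 and 2.49 in K307. The difference was 9.94 ± 0.26 (SE, adjusted p = 4.53e-12) and stood at 9.47 at control nitrogen. The next was at 11.83, 11.88 and 11.31 in HD2967 and at 3.44, 3.13 and 2.72 in K307, a difference of 8.57 ± 0.27 (SE, adjusted p = 3.82e-11). For both, K9107 roots lay with K307, at means of 2.42 and 2.46. Neither passed in low nitrogen shoots, with differences of -1.21 (adjusted p = 0.86) and -0.95 (adjusted p = 0.778).

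Gene names were available for few probe sets. The annotation pairs 1273 probe sets with 1 gene each, 771 genes in all, and 102 of these, with 200 probe sets, carry a name. Of the 102 named genes, 3 were higher and 5 lower in HD2967 at low nitrogen (7.84%). Of the 669 genes known by a locus number alone, 42 were higher and 54 lower (14.3%). These shares take the brightest probe set of each gene, so the share over all probe sets is not a like base. Counted by probe set, 6.5% of the 200 named and 11% of the 1273 paired probe sets passed, against 9.24% of all probe sets. No gene of nitrate or ammonium uptake and assimilation was among the named genes, so that pathway is not described here. A gene is read from its brightest probe set over the 18 root arrays.

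TaALMT1 showed the largest difference among named genes. It encodes the aluminium-activated malate transporter, which releases malate from root tips and underlies aluminium tolerance in wheat. Its levels were 2.42, 3.15 and 2.74 in HD2967 and 8.19, 7.72 and 7.98 in K307, so the groups were far from overlapping. The difference was -5.20 ± 0.48 (SE, adjusted p = 5.41e-06), a 36.6-fold higher signal in K307. It was -4.93 within set 2 and -4.99 within set 3. K9107 roots lay between, at 4.16, 6.53 and 4.37, and differed from both: HD2967 minus K9107 was -2.25 (adjusted p = 0.0141) and K307 minus K9107 was 2.94 (adjusted p = 0.0063). These comparisons share arrays. Over all probe sets 4.88% passed for HD2967 minus K9107 (2.09% higher, 2.79% lower) and 2.72% for K307 minus K9107 (1.22% higher, 1.5% lower).

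TaALMT1 was also higher in K307 in control nitrogen roots and in low nitrogen shoots. At control nitrogen the levels were 2.63, 2.68 and 2.97 in HD2967 and 6.01, 5.91 and 5.29 in K307, a difference of -2.97 (adjusted p = 0.00174). The difference between supplies, -2.22, did not pass (adjusted p = 0.123). In low nitrogen shoots HD2967 was at 2.74, 3.34 and 3.14 and K307 at 7.60, 7.84 and 8.53, a difference of -4.92 (adjusted p = 0.0034). In control nitrogen shoots, which were not tested, the groups overlapped, with HD2967 at 2.71, 2.59 and 3.00 and K307 at 5.09, 2.72 and 2.49. HD2967 was near 3 in every group of arrays, the lowest being 2.42 and the highest 3.34. Of the 8 named genes called at low nitrogen, TaALMT1 was the one whose call held without the set term.

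The plasma membrane proton ATPase gene ha1, whose product drives uptake of nitrate and other ions, was lower in HD2967. It was at 11.68, 11.71 and 11.68 in HD2967 and at 12.14, 11.98 and 12.21 in K307, a difference of -0.42 ± 0.12 (SE, adjusted p = 0.0453). The set-adjusted groups did not overlap, but the deposited values did, with HD2967 at 11.71 to 12.56 and K307 at 12.14 to 12.21. The step is small, and the other probe sets of ha1, at -0.33 and -0.32, did not pass (adjusted p = 0.171 and 0.155). The remaining gene of the ion and metabolite transport list did not pass, and all 5 probe sets of the list were below 0. Most of the 5 belong to ha1. The list median, -0.33 against -0.03 over all probe sets, is the value of a ha1 probe set and does not describe the list as a whole.

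Among cytoskeleton genes, Tubb5, which encodes a beta-tubulin of microtubules, was lower in HD2967 at all 4 of its probe sets. Its brightest probe set was at 8.81, 8.82 and 8.52 in HD2967 and at 9.17, 9.31 and 9.23 in K307, a difference of -0.52 ± 0.12 (SE, adjusted p = 0.0108). Its other probe sets were at -0.57, -0.79 and -0.71 (adjusted p = 0.00507, 0.0016 and 0.00561). The remaining 6 genes of tubulins and actin-binding proteins did not pass. tubb3, also a beta-tubulin gene, had a value of 0.37 (adjusted p = 0.0512), on the other side of 0 from Tubb5.

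Hmgb3, which encodes a high mobility group chromatin protein, was lower in HD2967 at both of its probe sets. Levels were 10, 10.25 and 10.07 in HD2967 and 10.67, 10.69 and 11.17 in K307, a difference of -0.74 ± 0.20 (SE, adjusted p = 0.035). The second probe set was at -1.12 (adjusted p = 0.00212). The set-adjusted groups did not overlap, but the deposited values did, with HD2967 array 1 at 10.91 and K307 array 1 at 10.67. K307 array 3 stood above the other K307 arrays. AGP-S, the small subunit of ADP-glucose pyrophosphorylase and so an enzyme of starch synthesis, was at 8.01, 8.07 and 7.92 in HD2967 and at 8.32, 8.52 and 8.88 in K307. Its difference was -0.57 ± 0.15 (SE, adjusted p = 0.0248), and it was the 1 gene of 7 in the fructan, sucrose and starch list that passed. Deposited values of AGP-S also overlapped, with HD2967 at 8.07 to 8.76 and K307 at 8.32 to 8.88.

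Rab15, RPS29 and Glc1 were higher in HD2967. Rab15, a dehydrin gene of the kind that responds to abscisic acid and drought, was at 6.49, 6.72 and 6.22 in HD2967 and at 5.20, 5.86 and 5.71 in K307. The difference was 0.89 ± 0.20 (SE, adjusted p = 0.0103), and it was 1.26 within set 2 and 0.36 within set 3. RPS29, which encodes a protein of the small ribosomal subunit, was at 7.20, 7.47 and 6.81 in HD2967 and at 5.79, 6.49 and 6.28 in K307. The groups did not overlap, and the value was 1.44 within set 2 and 0.32 within set 3. The second probe set, at 0.05, did not pass (adjusted p = 0.868). The difference was 0.98 ± 0.29 (SE, adjusted p = 0.0474).

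Glc1, a glucanase gene listed with defence, was at 7.90, 7.95 and 7.85 in HD2967 and at 6.86, 7.37 and 7.26 in K307. The difference was 0.74 ± 0.18 (SE, adjusted p = 0.0176), with K307 array 1 the lowest. The HD2967 arrays were close together only after the set adjustment, and stood at 8.62, 7.95 and 7.90 in deposited values. The second probe set of Glc1 was at 0.10 (adjusted p = 0.868). The other 13 genes of the defence list did not pass. Each of the 7 named calls other than TaALMT1 was lost without at least 1 of the 6 arrays, ha1 and AGP-S without 5 of the 6 in turn. The named genes called at low nitrogen, other than ha1, were also called at control nitrogen in the same direction. With 1 control array left out, Hmgb3 ran there from -2.04 to -1.62 and Glc1 from 1.53 to 1.82, larger than at low nitrogen. The difference between supplies did not pass for either. AGP-S, Rab15 and RPS29 lost their control call without at least 1 control array.

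**Figure D2:**
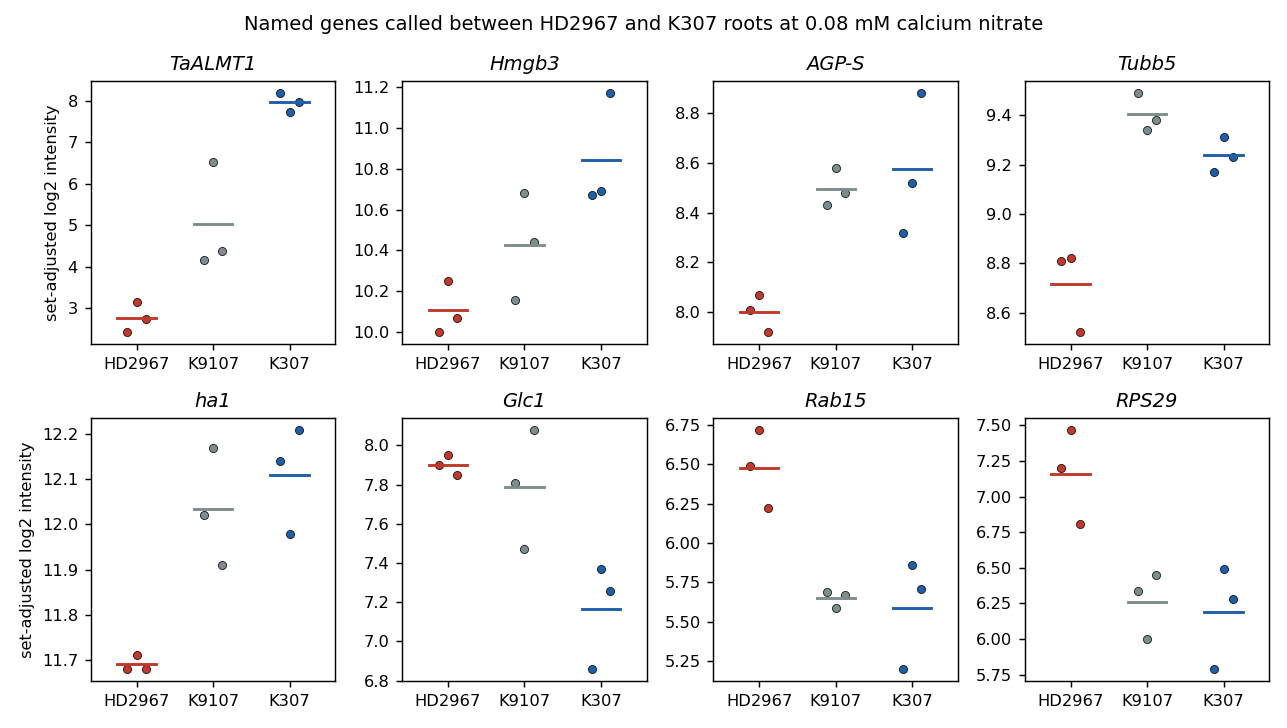
Set-adjusted log2 intensity of the 8 named genes called between HD2967 and K307 roots at 0.08 mM calcium nitrate, with K9107 roots between them (points, 3 arrays a group; bars, group means; each panel has its own scale). In TaALMT1 the HD2967 arrays sit between 2.42 and 3.15 and the K307 arrays between 7.72 and 8.19, and in the other 7 genes the groups part by less than 1 on average.

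Of the 14 groups of named genes, 7 held no called gene. For the list counts below, the base over all 61179 probe sets is 9.24% called and 13857 at an unadjusted p under 0.05. The core histones had 0 of 18 probe sets called (0%), with none at an unadjusted p under 0.05. The histone gene of smallest p was wcH2A-2, with a value of 0.72 (adjusted p = 0.257), followed by wcH2A-3 and wcH2B-8 at -0.17 and -0.11. The gibberellin 20-oxidase genes, which make bioactive gibberellin precursors, had values of 0.39 (GA20ox1d), 0.18 (GA20ox1a) and -0.04 (GA20ox1b), none of which passed, and 0 of 4 probe sets at an unadjusted p under 0.05. In low nitrogen shoots GA20ox1b was lower in HD2967, by -1.98 (adjusted p = 0.00879), a call lost without the set term (-1.12, adjusted p = 0.357).

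The redox list had 0 of 14 probe sets called and 1 at an unadjusted p under 0.05. Its leading values were -0.41 for GSTZ1, a glutathione transferase gene, 0.33 for PER1, a peroxiredoxin gene, and -0.41 for Trx-M, a plastid thioredoxin gene. The grain protein list had 0 of 22 called and 5 at an unadjusted p under 0.05, with ALP at -0.37, avnla at 1.62 and Gli-D2-16 at 0.60. The cell wall list held 1 gene, XTH, a xyloglucan-modifying enzyme gene, at 0.28 (adjusted p = 0.229).

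The photosynthesis list had 1 of 36 probe sets called (2.78%), a further probe set of rbcl at -0.56 (adjusted p = 0.0329), while the brightest rbcl probe set was at 0.44 (adjusted p = 0.606). PsbO and PsbP were at 0.48 and 0.44 and did not pass. Of the 5 leaf markers, PsbO ran from 6.44 to 6.87 in HD2967 and from 6.11 to 6.36 in K307, and PsbP from 5.88 to 6.25 and from 5.44 to 5.97. The other 3 reached higher in K307, and they and PsbP overlapped between the genotypes. Levels of petC were 4.39 to 5.43 in HD2967 and 4.41 to 6.20 in K307. In the same order, PRK was at 3.72 to 4.91 and 3.20 to 6.08, and FBP at 3.88 to 4.18 and 3.54 to 4.98. Of named genes outside the lists, APRT, TSA and UBC1 had values of -0.31, -0.35 and -0.36 and did not pass (adjusted p = 0.0638, 0.0951 and 0.13).

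**Figure D3:**
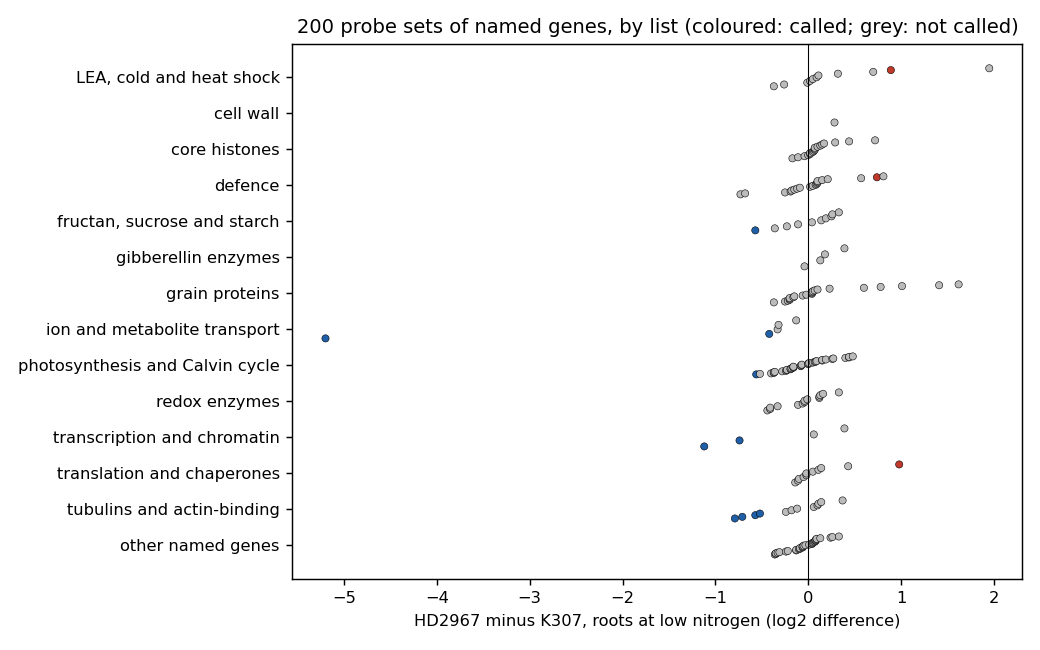
HD2967 minus K307 log2 difference in low nitrogen roots for the 200 probe sets of named genes, 1 point each, by list (red, called higher in HD2967; blue, called higher in K307; grey, not called). The TaALMT1 probe set stands alone at -5.20, and the 4 Tubb5 probe sets lie together between -0.79 and -0.52.

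The array's own control genes, which were not tested, gave a check on scale. Of 25 such probe sets, 22 differed by less than 0.5, over a range of -0.33 to 0.83. The 3 outside that range all belong to G-6-PDH, the first enzyme of the oxidative pentose phosphate pathway, with values of 0.63, 0.83 and 0.69. The middle probe set of G-6-PDH was at 9.69, 9.73 and 9.01 in HD2967 and at 8.88, 8.78 and 8.68 in K307.

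Of the genes with a locus number alone, 4 were chosen after their values were seen. LOC542821 was at 7.05, 6.78 and 6.66 in HD2967 and at 3.25, 3.96 and 3.12 in K307, a difference of 3.38 ± 0.24 (SE, adjusted p = 2.23e-07). It was 4.17 at control nitrogen and 3.89 in low nitrogen shoots. K9107 roots, at 6.47, 6.30 and 6.26, lay near HD2967. LOC543123 was at 7.92, 7.96 and 7.33 in HD2967 and at 5.38, 5.82 and 5.32 in K307, a difference of 2.23 ± 0.29 (SE, adjusted p = 0.000161), and was 2.45 at control nitrogen.

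LOC543397 was at 2.00, 3.03 and 2.34 in HD2967 and at 7.13, 7.62 and 8.18 in K307, a difference of -5.19 ± 0.49 (SE, adjusted p = 7.08e-06). At control nitrogen both genotypes were low, at 2.08, 2.22 and 2.02 in HD2967 and 3.20, 3.04 and 2.93 in K307, and the difference of -0.95 did not pass (adjusted p = 0.323). K9107 was, as K307 was, low at control and high at low supply, at 1.92 to 3.25 at control supply and 5.90 to 8.18 at low supply. The difference between supplies was -4.24 (adjusted p = 0.0119), and it did not pass without K307 control array 1 (adjusted p = 0.0551). LOC543176 was at 6.66, 6.45 and 7.10 in HD2967 and at 10.25, 9.21 and 9.12 in K307, a difference of -2.79 ± 0.53 (SE, adjusted p = 0.00408), with all 3 of its probe sets called. At control nitrogen it was at 3.42 to 4.76 in both genotypes, and the difference of -0.50 did not pass (adjusted p = 0.698). The difference between supplies, -2.29, did not pass either (adjusted p = 0.151), and the low nitrogen call was lost without the set term (-2.32, adjusted p = 0.0824).

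Control nitrogen roots of the same pair gave 9198 called probe sets (15%), 4207 higher in HD2967 (6.88%) and 4991 higher in K307 (8.16%). All HD2967 control root arrays lay in set 3, where K307 control array 1 was the only K307 control root array. K307 control arrays 2 and 3 lay in sets 4 and 2, and no K9107 root array lay in set 3. Both the control difference and the difference between supplies thus rested on K307 control array 1 and on the fitted set offsets. Without that array the count was 4927. The supplies shared 2724 calls in one direction, 48.2% of the low nitrogen calls and 29.6% of the control calls, and 100 were called in opposite directions. The 2 supplies share the set term and variance of one fit. With each supply fitted on its own 9 arrays, 3060 and 4763 passed, and 1287 were called in the same direction. In low nitrogen shoots 1181 probe sets passed (1.93%; 0.951% higher and 0.979% lower in HD2967), and 800 of them had the same call in low nitrogen roots, 67.7% of the shoot calls and 14.1% of the root calls. In these shoots the HD2967 arrays lay in sets 4, 2 and 4 and the K307 arrays in sets 2, 2 and 3. Only set 2 held shoot arrays of both. In all, 687 probe sets were called the same way in roots at both supplies and in low nitrogen shoots.

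**Figure D4:**
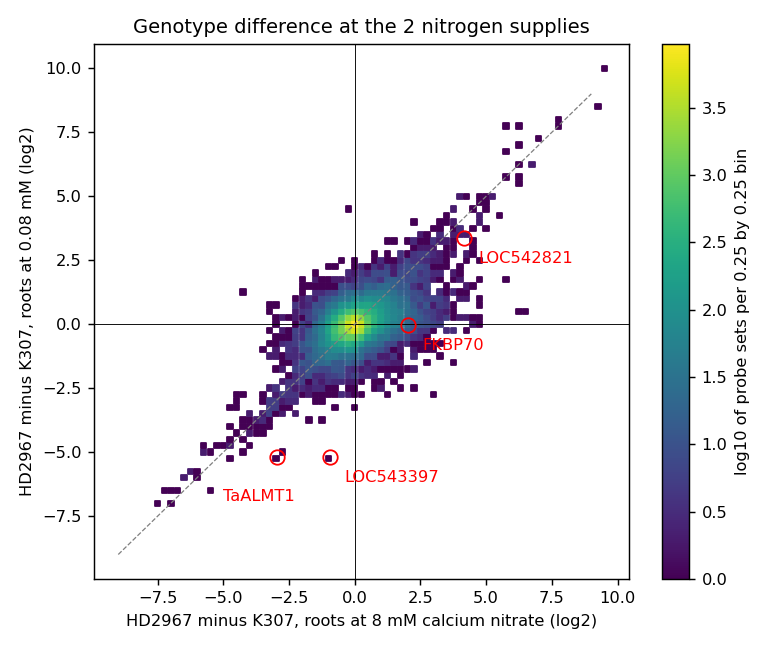
HD2967 minus K307 log2 difference in roots at 0.08 mM (vertical) against 8 mM calcium nitrate (horizontal) for all probe sets in bins of 0.25, coloured by the log10 number per bin, with the line of equal difference dashed. TaALMT1 (-2.97 and -5.20) and LOC542821 (4.17 and 3.38) differ at both supplies, LOC543397 (-0.95 and -5.19) lies far from 0 at low supply alone, and FKBP70 (2.02 and -0.02) at control supply alone.

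The genotype difference itself differed between supplies for 1522 probe sets (2.49%), in 1.11% with a higher and in 1.37% with a lower value at low supply. Of these, 1050 were called at control nitrogen alone, 231 at low nitrogen alone, 100 in opposite directions and 92 in the same direction at both. FKBP70, an immunophilin gene with peptidyl-prolyl isomerase activity, had the smallest p among named genes. At low nitrogen it was at 9.94, 9.64 and 9.72 in HD2967 and at 9.44, 9.82 and 10.10 in K307, overlapping groups. At control nitrogen HD2967 stood at 11.12, 11.79 and 11.43 and K307 at 9.44, 9.39 and 9.46. The difference was -0.02 at low and 2.02 at control nitrogen, and the test of their difference gave -2.03 ± 0.28 (SE, adjusted p = 0.0034).

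Tubb5 was also called in that test, at 0.75 ± 0.18 (SE, adjusted p = 0.0388), with differences of -0.52 at low and -1.27 at control nitrogen. K307 was at 9.96, 9.77 and 9.77 at control supply, above its low nitrogen levels, while HD2967 stayed between 8.47 and 8.82. The call was lost without any 1 of 8 of the 12 arrays of the pair. Glc1, Hmgb3, IVR1, an invertase gene, and rbcl had the next smallest p and did not pass (adjusted p = 0.0708, 0.0711, 0.102 and 0.103). The number of calls in this test rested on single arrays, from 357 without K307 control array 1 to 2712 without HD2967 control array 1.

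**Figure D5:**
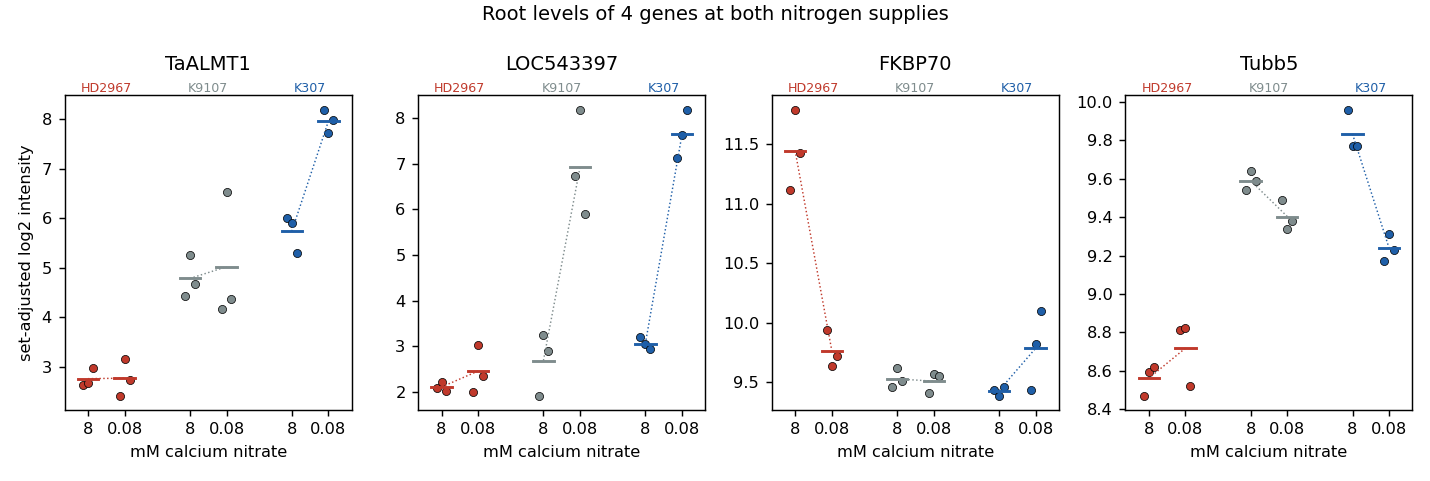
Set-adjusted log2 intensity in roots at 8 and 0.08 mM calcium nitrate for TaALMT1, LOC543397, FKBP70 and Tubb5 in HD2967, K9107 and K307 (points, 3 arrays a group; bars, means joined by a dotted line; each panel has its own scale). FKBP70 is at 11.12 to 11.79 in HD2967 control roots and at 9.39 to 10.10 in all other groups shown.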

How the data were processed

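Root and shoot RNA was hybridised to Affymetrix wheat arrays. The authors deposited log2 intensities for 61290 probe sets. RMA is the tool in the submitters' processing notes, and the series description adds GeneSpring 14.5 and Student's test with a limit of 0.1. The RMA version and the arrays it took together were not given. The values were used as deposited. Affymetrix controls (111 probe sets) were not tested, while 64 reporters were. Arrays were grouped into sets by gaps of over 0.1 between sorted array medians over 48 arrays. limma 3.58.1 in R 4.3.3 fitted group and set over 18 root arrays, or 18 shoot arrays, with 10 residual degrees of freedom and two-sided tests. The fourth variety, CL, was left out because its 12 arrays form a set of their own, with medians of 1.14 to 1.26. In a simulated test of the low nitrogen comparison over 61179 probe sets, 71 of 100 changes of 1 and 96 of 100 of 2 on the log2 scale were recovered, with 13 other calls. The simulation drew independent normal noise around the fitted means and set offsets, and only the chosen probe sets differed. It took the set term as correct. Its counts need not hold for the real comparison, where many more probe sets passed.

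Named were every called gene with a name, the 6 smallest p for the difference between supplies, up to 4 called members per list or else the 3 of smallest p, and the 2 highest and 2 lowest unpaired probe sets. The comparison, lists and rules were chosen with earlier results of these data known. Of the 771 genes paired by the platform annotation, 770 matched by gene ID in RefSeq's gene table (IWGSC CS RefSeq v2.1). The number of arrays limits precision.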

Additional observations from a re-analysis of the deposited data

Results flagged for a closer look

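The HD2967 minus K307 root difference changed with nitrogen supply, by a test of the difference between supplies with limma and Benjamini-Hochberg adjustment, for 1522 probe sets. Among named genes it did so for FKBP70, at -2.03 ± 0.28 (SE, adjusted p = 0.0034), and for Tubb5, at 0.75 ± 0.18 (SE, adjusted p = 0.0388). Of the genes with a locus number alone that were followed, it did so for LOC543397, at -4.24 ± 0.75 (SE, adjusted p = 0.0119).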

How the results depend on the processing

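At low nitrogen the count of 5654 called probe sets became 872 with no set term, 3358 with the CL arrays included, 861 in the 6 arrays alone and 3060 in the 9 low nitrogen arrays. It ran from 2529 to 6146 with 1 array left out. The methods' t-test gave 6599 at p of at most 0.1 (5263 higher in HD2967) and 1 after Benjamini-Hochberg. The control count of 9198 became 1854 with no set term, 5967 with CL and 4763 in the 9 control arrays, and ran from 4927 to 8999 with 1 array left out. The count for the difference between supplies, 1522, became 13 with no set term, 492 with CL and 998 with the replicate block, and ran from 357 to 2712. The shoot count of 1181 became 691 with no set term and 2387 with roots and shoots in 1 fit, and ran from 722 to 1103. Residuals of same-numbered low nitrogen arrays correlated at -0.308, 0.375 and -0.253. They come from 3 arrays a group after group and set were fitted, so they cannot decide whether replicate numbers pair arrays. No pairing was assumed in the main fit. With the replicate block the low nitrogen count was 4954, the control count 8224 and the shoot count 1139, and ha1 and RPS29 at low nitrogen, Rab15 at control nitrogen and Tubb5 between supplies lost their calls (adjusted p = 0.0756, 0.0718, 0.0645 and 0.0612). Repeated quantile normalization, brighter probe sets alone and a trended, robust prior kept all 4 counts within 1.5 times. The causes were not tested, beyond the fewer arrays of the smaller fits.

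Of 617 recomputed values of results that passed, 0 changed sign. TaALMT1 lost its call in the methods' t-test alone (adjusted p = 0.0602). The other 7 named calls were lost with no set term, with CL, in the 6 and in the 9 arrays, and 6 of them, all but Glc1, with roots and shoots in 1 fit. FKBP70 lost its call between supplies with no set term (adjusted p = 0.165). Tubb5 lost its call between supplies with no set term, with CL and with roots and shoots in 1 fit (adjusted p = 0.67, 0.355 and 0.872). LOC543397 did so with no set term (adjusted p = 0.175) and without K307 control array 1. With no set term LOC543176 lost its low nitrogen call (adjusted p = 0.0824) and GA20ox1b its shoot call (adjusted p = 0.357), and at control nitrogen AGP-S, Rab15 and RPS29 lost theirs (adjusted p = 0.276, 0.968 and 0.114). All 4 genes with a locus number and all 4 unpaired probe sets described lost theirs in the methods' t-test after adjustment. IVR1, ALP, APRT, PER1, UBC1 and Gli-D2-16, not called at low nitrogen, passed there in at least 1 alternative.

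Values that had not passed changed sign in 52 cases, 1 of them past the threshold, the rbcl probe set at -0.56. With no set term and in the methods' t-test, wcH2A-3 was 0.14, wcH2B-8 0.15, GA20ox1b 0.32 and FKBP70 0.12, all at low nitrogen. With roots and shoots in 1 fit wcH2B-8 was 0.02. With 1 array left out at low nitrogen, wcH2B-8 ran from -0.36 to 0.14, GA20ox1b from -0.17 to 0.05, FKBP70 from -0.20 to 0.15, rbcl from -0.07 to 1.03 and Trx-M from -0.85 to 0.08. Within set 2, wcH2B-8 was 0.14 and rbcl -0.21. Within set 3, GA20ox1a was -0.01, GA20ox1b 0.25, PER1 -0.06 and Trx-M 0.55. Other probe sets gave 0.13 for wcH2A-3, 0.05, 0.07, 0.02, 0.17 and 0.15 for wcH2B-8, 0.78, 0.23 and 1.01 for ALP, 0.26 for TSA and -0.19 for PsbP. Those of rbcl gave -0.00, -0.56, -0.52, -0.37, -0.36, -0.16, -0.07, -0.19, -0.37, -0.16, -0.28, -0.08, -0.23, -0.40 and -0.24.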

Other observations

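In low nitrogen shoots, 2 probe sets that were high in HD2967 roots and low in K307 roots stood out on 1 K307 array. In deposited values, not adjusted for the set, the unpaired probe set highest in HD2967 roots was at 8.29 on K307 shoot array 3, against 2.45 and 2.08 on the other 2, and the next one was at 5.76 against 2.63 and 2.39. In control shoots their deposited values were 6.94 and 5.38 on HD2967 array 1, against 2.79 and 2.48, and 2.68 and 3.32, on the other HD2967 arrays. Both high arrays lie in set 3, so set-adjusted shoot levels of these probe sets rest on them.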
